A study of Mus musculus with 22 samples.

Results

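Dscam is an immunoglobulin adhesion receptor whose gene lies in the chromosome 16 segment that Ts1Cje mice carry in an extra copy. It was compared here with 5 genes that lie outside that segment: its paralog Dscaml1, the netrin receptors Dcc, Unc5c and Neo1, and the kinase Pak1. The 6 genes were picked by symbol and matched by Entrez gene number (Dscam 13508 on chromosome 16, Dscaml1 114873 on chromosome 9, Dcc 13176 on chromosome 18, Unc5c 22253 on chromosome 3, Neo1 18007 on chromosome 9 and Pak1 18479 on chromosome 7). They are 6 of 21225 measured features, and all 6 were found. The readout was the log2 signal per gene on an Affymetrix mouse gene 1.0 ST array, which summarises probes along the whole transcript. The animals were 11 female mice aged 8 to 10 weeks: 6 Ts1Cje mice, a model of Down syndrome with 3 copies of distal chromosome 16 on a translocation with chromosome 12, and 5 wild-type (WT) littermates with 2 copies. The line had been kept by crossing Ts1Cje males to C57Bl/6J females. Each animal gave 1 array of cerebral cortex and 1 of hippocampus, 22 arrays in all.

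Dscam binds itself across cell surfaces and is known for keeping sister branches of a neuron apart and for roles in axon guidance and synapse formation. Netrins are secreted guidance cues that attract axons through Dcc and repel them through Unc5 receptors, alone or together with Dcc. Dscam has also been described as a netrin receptor, and signals of these receptors reach the actin cytoskeleton through Rac1, Cdc42 and their target kinase Pak1. Neogenin, the product of Neo1, is a relative of Dcc that binds netrins and repulsive guidance molecules.

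Both arrays of 1 WT mouse (animal 60, the number in their titles, where their descriptions give 61, also the number of a Ts1Cje animal) and of 1 Ts1Cje mouse (animal 64) stood apart from the other 9 in each region, with a median correlation to the other arrays of the region of 0.967 and 0.976 in cortex and 0.991 and 0.985 in hippocampus, against 0.996 to 0.997 and 0.995 to 0.996 for the others. The spread of signals over genes was narrower on them as well (SD 1.86 and 1.95 in cortex, 2.06 and 1.98 in hippocampus, against 2.17 to 2.22 and 2.14 to 2.19). The genotype differences of Dscam and the region differences of Dscam, Pak1, Unc5c and Neo1 are also given without them. The region labels fitted most markers once each array was centred on its median. At a limma adjusted p under 0.05, 6 of 7 markers of cortical neurons were lower in hippocampus, and 1 was higher, at 0.55. Of 8 markers of hippocampal neurons 7 were higher there by this rule, and the other stood at -0.22 without passing. Of all genes 20.4% were higher and 21.2% lower by the same rule. The mean of 7 striatal neuron markers stood 2.39 to 3.10 above the array median (log2) on the cortex arrays and 0.46 to 1.05 above it on the hippocampus arrays, and that of 6 choroid plexus markers at -0.55 to 1.37 and 2.18 to 3.02. These are bulk tissues, in which fewer cells of a type and less RNA per cell cannot be told apart.

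Dscam was higher in Ts1Cje than in WT in both regions, by a log2 of 0.48 in each. In cortex the WT animals read 10.06, 10.56, 10.48, 10.47 and 10.59 (animals 60, 62, 65, 95 and 98), and the Ts1Cje animals 10.93, 10.92, 10.74, 10.93, 11.03 and 10.95 (animals 61, 63, 64, 87, 94 and 97). In hippocampus the WT animals read 9.39, 9.63, 9.62, 9.56 and 9.58 and the Ts1Cje animals 9.97, 10.15, 9.92, 10.12, 10.00 and 10.06, in the same order. No Ts1Cje value overlapped the WT values in either region, and the lowest value of each of the 4 groups belonged to animal 60 or animal 64.

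The group means of Dscam were 10.43 ± 0.216 (SD, n = 5) in WT and 10.92 ± 0.0972 (SD, n = 6) in Ts1Cje cortex, a difference of 0.48 ± 0.0979 (SE; 95% interval 0.27 to 0.70), or 1.40-fold. With all animals the cortex difference did not pass after adjustment over 20768 genes (limma adjusted p = 0.561). There 1 gene was called at an adjusted p under 0.05, or 0.00482% of genes, and 268 genes (1.29%) were under 0.05 unadjusted, Dscam among them. In hippocampus the means were 9.56 ± 0.0977 (SD, n = 5) and 10.04 ± 0.0868 (SD, n = 6), and Dscam rose by 0.48 ± 0.0601 (SE; 0.35 to 0.61), or 1.39-fold (limma adjusted p = 0.0213). Limma called 23 genes in that tissue, 0.111% of those tested. The lowest Ts1Cje value of Dscam exceeded the highest WT value in each region, an order that 0.226% of genes showed in cortex and 0.376% in hippocampus.

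Averaged over the regions of each animal, Dscam was higher by 0.48 ± 0.0718 (SE; 0.32 to 0.64), with limma adjusted p = 0.0505 against 0.053% of genes called. Without animals 60 and 64 the difference was 0.43 ± 0.0422 in cortex (0.33 to 0.52), 0.46 ± 0.0439 in hippocampus (0.36 to 0.56) and 0.44 ± 0.0296 in the animal means, and Dscam was called in all 3 (limma adjusted p = 0.0029, 0.00421 and 8.03e-05). The percentages of genes called were then 0.154%, 0.178% and 0.25%. The log2 of the copy ratio, 3 over 2, is 0.585: it lay inside the intervals from all 11 animals and above those from 9 animals in both regions. The hippocampus call was lost when any 1 of animals 61, 62, 65, 87, 94, 95, 97 or 98 was left out, with log2 differences of 0.44 to 0.50 and limma adjusted p of 0.0055 to 0.0977 over all 11 omissions.

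**Figure D1:**
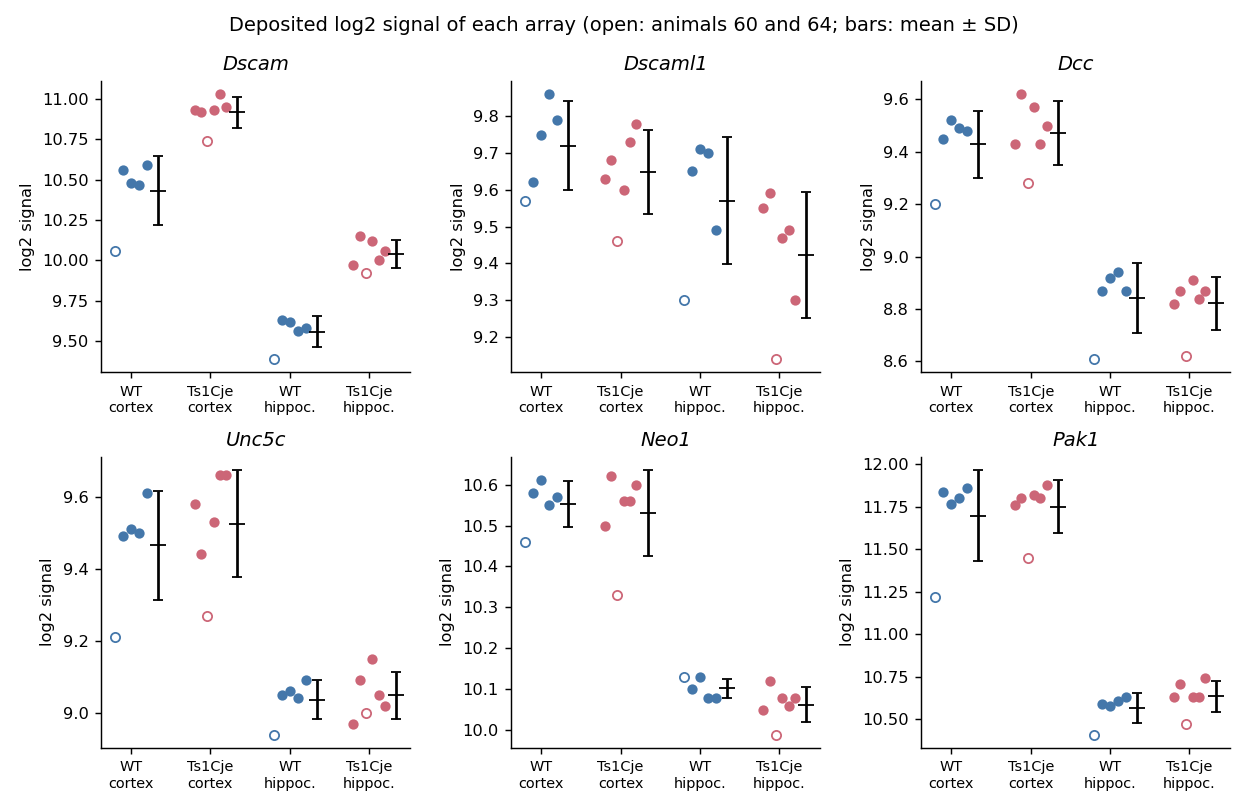
Deposited log2 signal of the 6 genes on each of the 22 arrays, by genotype and region (points are animals, open points are animals 60 and 64, and bars give the mean ± SD of all animals in the group). Only in the panel of Dscam do the Ts1Cje points of a region lie wholly above its WT points, and the vertical scale differs between panels.

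The genotype difference of Dscam did not differ detectably between the regions, in a fit without pairing by animal. The hippocampus difference minus the cortex difference was -0.01 ± 0.114 (SE; 95% interval -0.24 to 0.23; limma adjusted p = 1.00). The value was 0.02 after centring the arrays on their medians and 0.03 without animals 60 and 64, so that its sign was not settled. None of the other 5 genes passed this comparison, with values from -0.08 for Dscaml1 to 0.02 for Pak1, and limma called 0 of 20768 genes, with 264 (1.27%) at an unadjusted p under 0.05.

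Dscaml1, the paralog that also mediates adhesion between like cells, was not called in either region. In cortex the WT animals read 9.57, 9.62, 9.75, 9.86 and 9.79, and the Ts1Cje animals 9.46 to 9.78 with a median of 9.66. In hippocampus the WT animals read 9.30, 9.65, 9.71, 9.70 and 9.49, and the Ts1Cje animals 9.14 to 9.59 with a median of 9.48. The genotypes overlapped in both regions. The difference was -0.07 ± 0.0778 (SE; -0.24 to 0.10) in cortex and -0.15 ± 0.0974 (SE; -0.36 to 0.06) in hippocampus, with limma adjusted p = 1.00 in each. It was below 0 in every alternative run on the genotype comparisons. Without animals 60 and 64 the difference of the animal means was -0.11 ± 0.0388 (SE; limma adjusted p = 0.529).

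The netrin receptors showed no called genotype difference. Dcc, the attractive receptor, read 9.20, 9.45, 9.52, 9.49 and 9.48 in WT cortex and 9.28 to 9.62 (median 9.47) in Ts1Cje cortex. In hippocampus it read 8.61, 8.87, 8.92, 8.94 and 8.87 in WT and 8.62 to 8.91 (median 8.85) in Ts1Cje. The groups overlapped over nearly their whole range, and the differences were 0.04 ± 0.0811 (-0.13 to 0.22) in cortex and -0.02 ± 0.0717 (SE; -0.18 to 0.14) in hippocampus.

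Unc5c, a repulsive netrin receptor, read 9.21, 9.49, 9.51, 9.50 and 9.61 in WT cortex and 9.27 to 9.66 (median 9.56) in Ts1Cje cortex. Its hippocampus values were 8.94, 9.05, 9.06, 9.04 and 9.09 in WT and 8.97 to 9.15 (median 9.04) in Ts1Cje. The genotypes overlapped in both, at differences of 0.06 ± 0.0926 (-0.14 to 0.26) and 0.01 ± 0.0478 (SE; -0.09 to 0.12). For Neo1 the WT values were 10.46, 10.58, 10.61, 10.55 and 10.57 in cortex and 10.13, 10.10, 10.13, 10.08 and 10.08 in hippocampus. The Ts1Cje values of Neo1 ran from 10.33 to 10.62 (median 10.56) and from 9.99 to 10.12 (median 10.07). Its differences were -0.02 ± 0.0654 (-0.17 to 0.12) and -0.04 ± 0.0402 (SE; -0.13 to 0.05), so that the hippocampus interval was the narrowest of the 6 genes there.

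Pak1, the kinase downstream of Rac1 and Cdc42, was not called either. It read 11.22, 11.84, 11.77, 11.80 and 11.86 in WT cortex and 11.45 to 11.88 (median 11.80) in Ts1Cje cortex. In hippocampus it read 10.41, 10.59, 10.58, 10.61 and 10.63 in WT and 10.47 to 10.74 (median 10.63) in Ts1Cje. The low value of each group was that of animal 60 or 64. The difference was 0.05 ± 0.124 (SE; -0.22 to 0.32) in cortex, where it was -0.0046 ± 0.0395 (SE; -0.09 to 0.08) without these animals, and 0.07 ± 0.0596 (SE; -0.06 to 0.20) in hippocampus. For Dcc, Unc5c, Neo1 and Pak1 limma adjusted p was 1.00 in both regions, and every interval of the 5 genes outside the segment ended below the log2 copy ratio of 0.585.

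**Figure D2:**
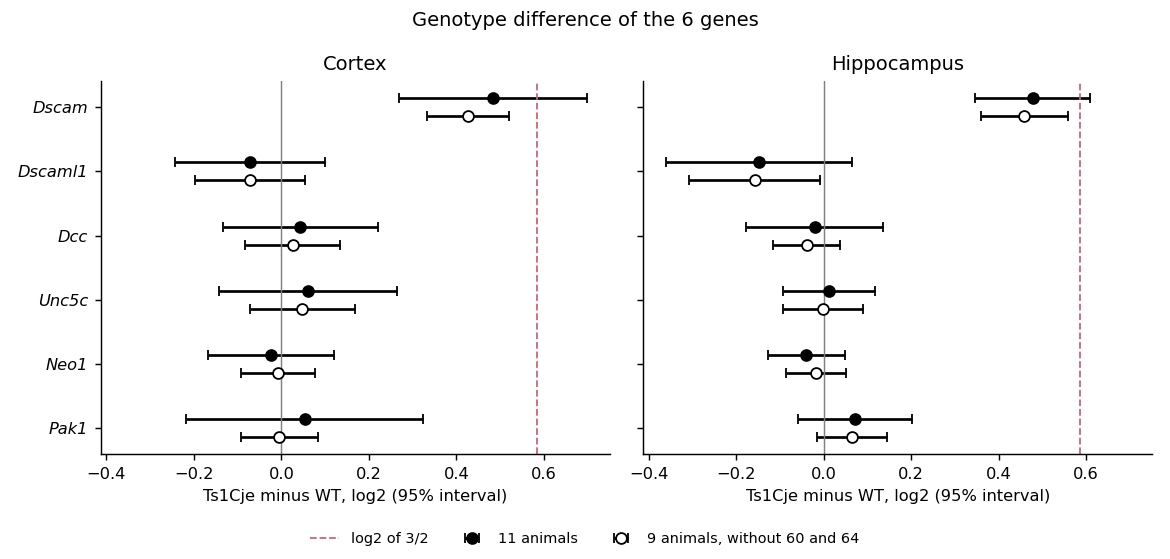
Ts1Cje minus WT log2 difference of the 6 genes in cortex and hippocampus from limma, with 95% intervals, for all 11 animals (filled) and for the 9 animals left without 60 and 64 (open). The intervals of Dscam lie above 0 in each panel, and the dashed line marks 0.585, the log2 of 3 copies over 2. In hippocampus the open interval of Dscaml1 lies just below 0 (-0.31 to -0.0078), and all other intervals include 0.

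Dscam was also set against each of the other 5 genes on the same array, which removes a shift common to both genes but not the narrower signal range of animals 60 and 64. The log2 signal of Dscam minus that of Dscaml1 was 0.71 ± 0.172 in the 5 WT and 1.27 ± 0.0539 (SD) in the 6 Ts1Cje cortex samples, and -0.01 ± 0.102 and 0.61 ± 0.141 in hippocampus. Over the 5 partners the genotype difference of this ratio was 0.42 to 0.56 in cortex and 0.41 to 0.63 in hippocampus, with the largest value in each region against Dscaml1. In all 10 comparisons the genotypes did not overlap. The exact two-sided permutation test over 462 splits of the animals gave p = 0.00216 in each, the smallest it can give, and the adjusted p over the 10 was the same. All 10 share the animals and the Dscam values, which by themselves did not overlap between genotypes. They are therefore a description and no separate support for the Dscam difference. How many other gene pairs show such an order was not counted. Without animals 60 and 64 the differences were 0.38 to 0.50 in cortex and 0.39 to 0.62 in hippocampus.

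Among the 73 measured genes of the triplicated segment, taken as those after Sod1 through Zbtb21 in chromosome order, Dscam stood near the top. The median Ts1Cje minus WT difference of the segment was 0.33 in cortex (quartiles 0.05 and 0.47) and 0.29 in hippocampus (0.11 and 0.39), against -0.0031 and -0.0064 over all genes. Dscam ranked 13 by log2 difference in cortex, just above the upper quartile, where Ifnar2 was highest at 0.59. In hippocampus it ranked 1, ahead of Vps26c at 0.47. That lead was smaller than the SE of Dscam there (0.0601), so the first rank is not settled. Limma called 0 of the 73 genes in cortex, with 44 at an unadjusted p under 0.05, and 17 in hippocampus. Of all genes 0.00482% were called in cortex, with 1.29% at an unadjusted p under 0.05, and 0.111% in hippocampus.

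The genes next to Dscam showed smaller differences over all 11 animals, but the gaps to Dscam were not tested. Before it in order come Igsf5, Itgb2l and Pcp4, a small calmodulin-binding protein of neurons, and after it Bace2, a protease related to the beta-secretase of amyloid precursor protein, Mx1, an interferon-induced gene, and Fam3b. In cortex the differences were -0.04 ± 0.136, -0.18 ± 0.175, 0.13 ± 0.0512, 0.33 ± 0.0917, 0.18 ± 0.115 and 0.06 ± 0.199 (SE) in that order, and none of the 6 was called. In hippocampus they were 0.10 ± 0.114, 0.04 ± 0.125, 0.28 ± 0.045, 0.22 ± 0.101, 0.29 ± 0.151 and 0.16 ± 0.0774 (SE), and only Pcp4 was called (limma adjusted p = 0.0471). The call of Pcp4 was lost in 10 of 11 omissions of 1 animal. All its Ts1Cje values lay above the WT values in each region, an order found for 0.226% of genes in cortex and 0.376% in hippocampus. In cortex its highest WT value was 12.97 and its lowest Ts1Cje value 13.00. Igsf5, Itgb2l, Mx1 and Fam3b had mean signals below the array median in each group, and Itgb2l fell to -0.0057 in hippocampus without animals 60 and 64, so that its sign was not settled. Without these animals the neighbour nearest Dscam was Bace2 in cortex, at 0.39 ± 0.0865 (SE) beside 0.43. In hippocampus it was Mx1, at 0.39 ± 0.144 (SE) beside 0.46.

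**Figure D3:**
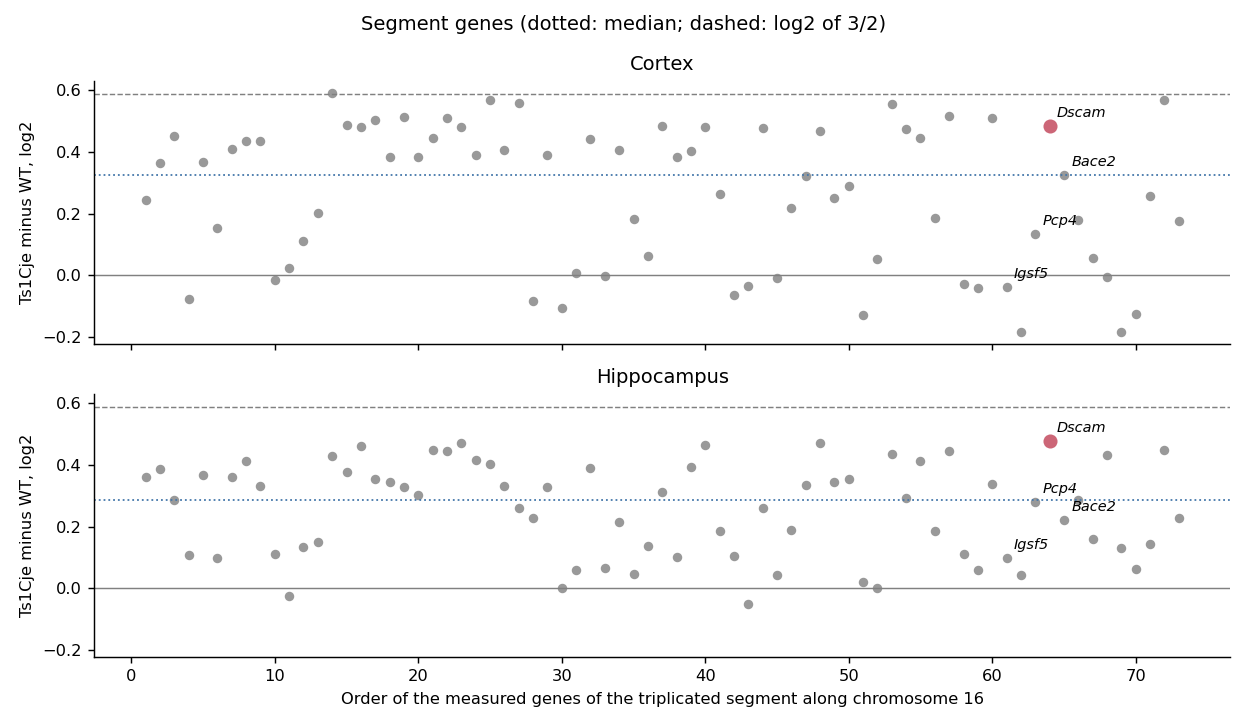
Ts1Cje minus WT log2 difference of the 73 measured segment genes against their order along chromosome 16, in cortex and hippocampus (grey points are genes, the red point is Dscam, the dotted line is the segment median and the dashed line 0.585). Dscam stands at 0.48 in each panel while its neighbours Igsf5, Pcp4 and Bace2 lie lower.

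In none of the 7 lists of related genes did the genotype comparison call a gene. Of all genes it called 0.00482% in cortex and 0.111% in hippocampus, so that the lack of a call says little about these lists. The lists hold 81 measured genes: ligands (11), other Unc5 and Dcc family receptors (6), receptor-proximal effectors (21), PAK kinases and the cofilin branch (15), other immunoglobulin adhesion receptors (18), Slit and Robo genes (6) and the scaffolds that bind the Dscam tail (4). Their median differences were -0.04 to 0.06 in cortex and -0.05 to 0.02 in hippocampus, beside -0.0031 and -0.0064 over all genes. An unadjusted p under 0.05 was found for 1 of these genes in cortex, Robo3, and for 2 in hippocampus, Prtg and Robo3, where 1.29% and 3.7% of all genes had one.

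Robo3, a divergent Robo receptor known for commissural axons, stood at -0.25 ± 0.0959 (SE) in cortex and -0.24 ± 0.11 (SE) in hippocampus, with limma adjusted p = 1.00 in each. Prtg, a Dcc relative, stood at -0.20 ± 0.0663 (SE) in hippocampus. The lowest unadjusted p among the ligands belonged to Ntn3, a netrin, in cortex (-0.19 ± 0.127, SE) and to Draxin, a Dcc ligand, in hippocampus (-0.21 ± 0.0974, SE). In the list of PAK kinases it belonged to the cofilin phosphatase gene Ssh3 in cortex (-0.09 ± 0.062, SE) and to Arhgef6, an exchange factor that binds Pak kinases, in hippocampus (0.08 ± 0.0584, SE). The corresponding genes of the other lists were Igdcc4 (-0.08), Trim9 (-0.08), Sdk2 (-0.12) and Magi1 (0.05) in cortex and Myo10 (-0.09), Cadm1 (0.08) and Magi1 (0.03) in hippocampus. None of these values passed after adjustment.

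The regions differed in 5 of the 6 genes once each array was centred on its own median. The array medians were 7.53 to 7.62 in cortex and 6.91 to 6.95 in hippocampus, and the median gene differed by a log2 of -0.63 on the deposited scale. Centring takes this difference out of every gene alike. Whether all genes carry it was not tested, and the higher levels of Dscaml1, Unc5c and Neo1 in hippocampus given here hold only relative to the array median. On the deposited scale 95.3% of genes were called, 309 higher and 19475 lower in hippocampus, against 41.6% after centring, 4232 higher (20.4%) and 4405 lower (21.2%). The cortex and hippocampus RNA was also isolated with different kits, so region and kit cannot be told apart. All values below are hippocampus minus cortex after centring, from a fit without pairing by animal, unless stated.

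Dscaml1 was higher in hippocampus by 0.44 ± 0.0647 (SE; 0.31 to 0.58), or 1.36-fold (limma adjusted p = 9.36e-06), and was higher there in 11 of 11 animals, at 0.23 to 0.63 within an animal. On the deposited scale it was lower in hippocampus by a log2 of -0.19. Its paralog Dscam went the other way: it was lower in hippocampus by -0.25 ± 0.0614 (SE; limma adjusted p = 0.00252), or 1.19-fold, and lower in 11 of 11 animals, at -0.39 to -0.01. The value nearest 0 was that of animal 60, and without animals 60 and 64 the mean was -0.28 ± 0.0296 (SE).

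Pak1 was lower in hippocampus by -0.49 ± 0.0734 (SE; limma adjusted p = 1.11e-05), or 1.41-fold, and in 11 of 11 animals, at -0.65 to -0.16. Unc5c was higher by 0.18 ± 0.0534 (limma adjusted p = 0.0104) and Neo1 by 0.17 ± 0.0374 (SE; limma adjusted p = 0.000824), both in 11 of 11 animals, and on the deposited scale they were lower, at -0.45 and -0.46. The Unc5c differences spread from 0.03 to 0.39 and those of Neo1 from 0.12 to 0.32, with the highest value of each in animal 60, which also gave the Pak1 value nearest 0. Without animals 60 and 64 the differences were -0.55 ± 0.024 for Pak1, 0.13 ± 0.0315 for Unc5c and 0.14 ± 0.0212 (SE) for Neo1, and all 3 were called. For Dcc the mean was 0.01 ± 0.0574 (SE; 95% interval -0.11 to 0.13; limma adjusted p = 0.898), with 8 of 11 animals above 0, and -0.62 on the deposited scale, close to the difference of the median gene. A difference in 11 of 11 animals was found for 12.8% of all genes in the higher direction and 13.2% in the lower, so that such an order is common between these regions.

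The region differences did not differ detectably between the genotypes, a comparison with wide intervals (-0.24 to 0.23 for Dscam on the deposited scale). In WT and Ts1Cje animals, in that order, they were -0.26 ± 0.0907 and -0.24 ± 0.0828 (SE) for Dscam, 0.47 ± 0.0956 and 0.42 ± 0.0873 for Dscaml1, and -0.52 ± 0.108 and -0.47 ± 0.0990 for Pak1. For Neo1 they were 0.17 ± 0.0553 and 0.17 ± 0.0505 (SE), for Unc5c 0.19 ± 0.0789 and 0.17 ± 0.0720, and for Dcc 0.03 ± 0.0848 and -0.0087 ± 0.0774. In WT alone 25.7% of genes were called and in Ts1Cje alone 29.6%. Unc5c was not called in either genotype (limma adjusted p = 0.0848 and 0.0915) in this fit without pairing. It was called in each once arrays were paired by animal, as a random replicate block (limma adjusted p = 0.0153 and 0.0182) and without animals 60 and 64. Dscam was called in each genotype (limma adjusted p = 0.0419 and 0.0335), but the call was lost in 9 single omissions for WT and 5 for Ts1Cje.

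**Figure D4:**
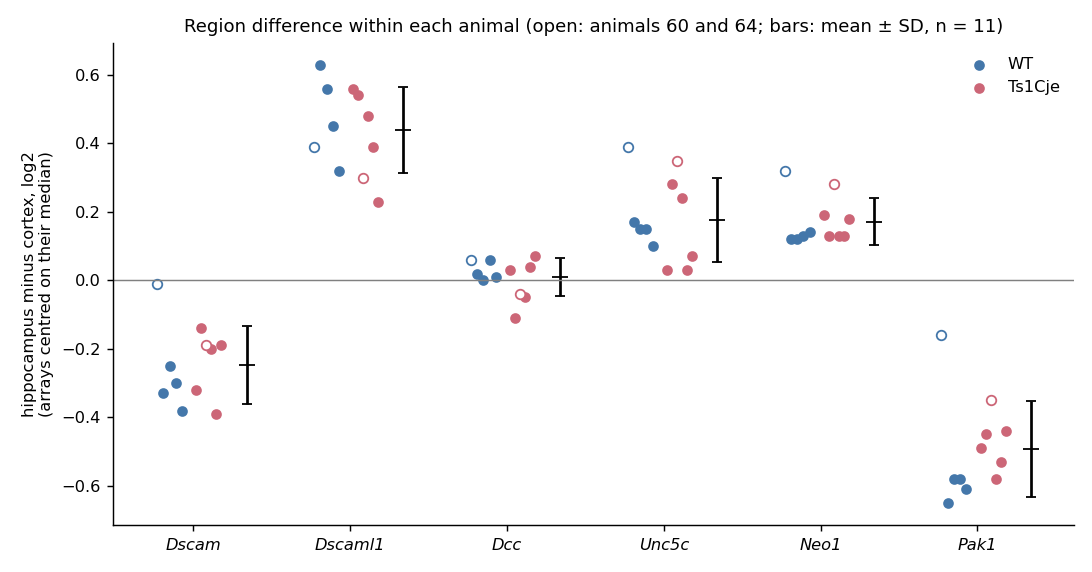
Hippocampus minus cortex log2 difference of the 6 genes within each of the 11 animals after centring each array on its median (points are animals by genotype, open points are animals 60 and 64, bars give the mean ± SD). Dscam and Pak1 lie below 0 in all 11 animals, Dscaml1, Unc5c and Neo1 above 0, and Dcc on both sides of 0.

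Several relatives of these genes showed larger region differences than the 6 genes themselves. Among the other Unc5 and Dcc family receptors 4 of 6 were called higher in hippocampus and 1 lower, where 20.4% of all genes were called higher and 21.2% lower. Unc5a was higher by 0.62 ± 0.0410 (-0.0091 on the deposited scale) and Prtg by 0.55 ± 0.0447 (-0.08 on that scale), while Unc5d was lower by -0.81 ± 0.0526 (SE). Of 11 ligands 2 were called higher, among them the repulsive guidance molecule gene Rgmb (0.19 ± 0.0532, and -0.44 on the deposited scale), and 4 lower. The lower ones included Flrt2, a ligand of Unc5 receptors (-0.48 ± 0.0822), Hjv (-0.39 ± 0.0993) and Ntn1, which encodes netrin-1 (-0.21 ± 0.0577, SE).

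Of 21 receptor-proximal effectors 7 were called higher and 2 lower, a share near the 41.6% of all genes that were called, and the 5 of 15 called in the PAK and cofilin branch lay below it. The adaptor gene Nck2 was at 0.43 ± 0.0407 (-0.20 on the deposited scale) and the Src family kinase gene Fyn at 0.24 ± 0.0685 (-0.39 on that scale), while Ptk2, which encodes focal adhesion kinase, was at -0.38 ± 0.0604 and Ablim1 at -0.33 ± 0.0611 (SE). Of 15 genes of the PAK and cofilin branch 1 was called higher, Arhgef6 (0.54 ± 0.0714, and -0.09 on the deposited scale), and 4 lower. Limk1, the kinase that inhibits cofilin, stood at -0.51 ± 0.0339, near Pak1, and Ssh3 and Pak6 at -0.35 ± 0.0403 and -0.31 ± 0.0458 (SE).

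Of the other immunoglobulin adhesion receptors 12 of 18 were called lower in hippocampus and 2 higher, with a list median of -0.23 beside -0.0037 over all genes. Of all genes 21.2% were called lower and 20.4% higher, beside which every count of this paragraph stands. The contactin genes Cntn6, Cntn4, Cntn5 and Cntn3, whose products are adhesion molecules of neurons, stood at -1.44 ± 0.087, -1.26 ± 0.0646, -0.91 ± 0.0585 and -0.85 ± 0.0883 (SE). Of the 4 scaffold genes 3 were called lower: Magi1 at -0.54 ± 0.0505, Magi3 at -0.46 ± 0.099 and Magi2 at -0.40 ± 0.0682 (SE). Among 6 Slit and Robo genes Slit1, a repulsive ligand of Robo receptors, was higher by 1.50 ± 0.0714 (SE) on the centred scale and higher on the deposited scale too. Slit3 was at 0.42 ± 0.0471 (-0.20 on the deposited scale), and Robo2 and Robo3 were lower, at -0.51 ± 0.0503 and -0.51 ± 0.0755 (SE). The marker lists moved between the regions too. In hippocampus 7 of 7 striatal markers were called lower and 6 of 6 choroid plexus markers higher, up to 2.96 for Ttr. Of 7 interneuron markers 5 were called lower and 1 higher (0.24). Oligodendrocyte markers were called higher for 4 of 7 and astrocyte markers for 4 of 6, with 1 astrocyte marker called lower (-0.19). The part of the marker lists in these results was not tested.

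**Figure D5:**
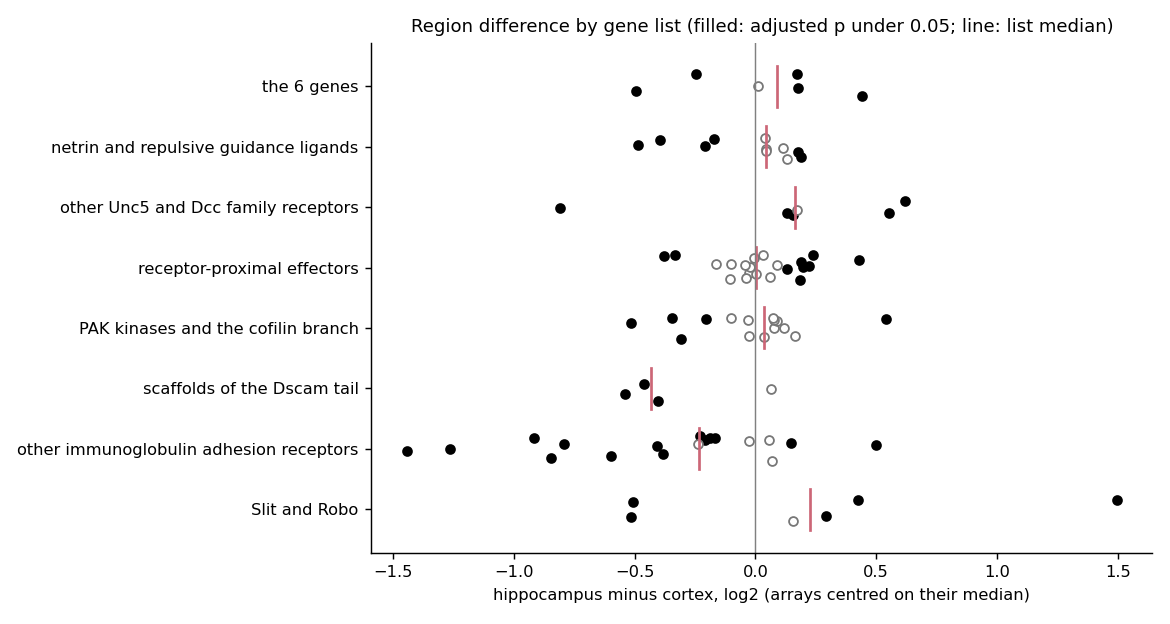
Hippocampus minus cortex log2 difference after median centring for the 6 genes and the 7 lists of related genes (points are genes, filled where limma adjusted p is under 0.05, and the red line is the list median). The immunoglobulin adhesion receptors spread furthest to the left, down to -1.44 for Cntn6, and Slit1 stands furthest to the right.

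Genes that varied most like each of the 6 genes were found by Pearson correlation over the 11 centred arrays of a region, averaged over the 2 regions. The arrays share the genotype groups and the narrower signal range of animals 60 and 64, so these are descriptions. For Dscam the closest were Son (0.97), Ifnar1 (0.97) and Dop1b (0.96), all genes of the triplicated segment. Without animals 60 and 64 they were Vps26c (0.98) and Ifnar1 (0.97) of the segment and Dnah11 (0.97), which lies on chromosome 12.

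For Dscaml1 the closest genes were Pcdhgc3, a clustered protocadherin gene (0.94), Iqsec3 (0.91) and Eef1b2 (0.91), and Pcdhgc3 stayed among the closest 3 over 9 animals (0.86). The genes nearest Dcc were Acp2, Lxn and Pacs1 (all 0.95), those nearest Unc5c were Ankfy1, Fam151b and Entpd7 (0.90 to 0.94), those nearest Neo1 were Nudt19, Galc and Nek6 (all 0.93) and those nearest Pak1 were Vps53, Dcaf6 and Rragc (all 0.97). For Dcc, Neo1 and Pak1 none of these was among the closest 3 without animals 60 and 64, while for Unc5c Entpd7 (0.83) and Ankfy1 (0.78) were. The correlations among the 6 genes themselves also moved with these animals: Unc5c and Pak1 correlated at 0.91 in cortex over 11 animals and at 0.14 over 9, and Dcc and Pak1 at 0.88 and 0.0018.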

How the data were processed

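Per the labels, total RNA with an integrity number above the stated limit was labelled with biotin and hybridised to 1 array per animal and region. Per the submitters' processing notes the authors processed the arrays with RMA, which corrects background, normalises arrays and summarises probes. The deposited values are log2 signals, 1 per Entrez gene number and array. Not given in the sources used here are the RMA version, probe definition and genome build, and whether the regions were normalised jointly. Of 21225 features 20768 were named through the RefSeq gene table (GRCm38.p6, used for names and gene order), which also named Pak1, unnamed in the platform annotation, and 457 were not. For 2 arrays the title gives WT animal 60 and the description 61, a number that a Ts1Cje animal also has. The title was used, which also sets the pairing of that animal's arrays.

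Each comparison was a two-sided linear model (limma 3.58.1, R 4.3.3, eBayes with its default prior), adjusted by Benjamini-Hochberg over 20768 genes, and genes with adjusted p under 0.05 are described as called. The genotypes were compared within each region and in the 11 animal means on deposited values, the difference of genotype effects on all 22 arrays, and regions on arrays centred on their medians. No dim gene was removed. The ratio of Dscam to other genes used an exact permutation test. Animals are the replicates of the genotype comparisons within a region and of the animal means. Their number limits the precision. The main fits on all 22 arrays did not use the pairing. Their SE and adjusted p treat the cortex and hippocampus arrays of an animal as independent. Pairing comes from the labels, which give 1 animal number to a cortex and a hippocampus array, and the deviations of the paired arrays from their group means correlated at a median of 0.264 (0.0531 to 0.762). The animal as a random replicate block had a consensus correlation of 0.437. The linear models were tested on simulated data with independent noise on each array. Centring, the replicate block, the permutation test and the correlations were not tested in this way.

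The text names the 6 genes, the 3 measured neighbours of Dscam on each side, per list of related genes the called genes of largest absolute log2 difference, at most 4 (otherwise the gene with the lowest p), and per member the 3 most correlated genes. Prtg, Ifnar2, Vps26c and Ttr are named beside a count or a rank, and their values had been seen. The members and lists were chosen with earlier results of these data known. Alternatives were a trend and robust prior, array weights, quantile normalisation, median centring, the dimmest genes (a share of 0.333) left out, every feature tested, fits on all arrays with and without the animal as a replicate block, genes named by the platform annotation (added after seeing the data), each animal left out in turn, and animals 60 and 64 left out together.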

Additional observations from a re-analysis of the deposited data

Results flagged for a closer look

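In 36 groups of 5 or 6 values of the 6 genes, 12 held a value far from the others by Dixon's test, which chance alone does for about 1 group in 20. All 12 belonged to WT animal 60 or Ts1Cje animal 64, the animals whose arrays stand apart from the rest over all genes. For Dscam, animal 60 read 10.06 in WT cortex against 10.47 to 10.59 among its group and 9.39 in WT hippocampus against 9.56 to 9.63, and animal 64 read 10.74 in Ts1Cje cortex against 10.92 to 11.03. For Dcc, animal 60 read 9.2 in WT cortex against 9.45 to 9.52 and 8.61 in WT hippocampus against 8.87 to 8.94, and animal 64 read 8.62 in Ts1Cje hippocampus against 8.82 to 8.91. For Pak1, animal 60 read 11.22 in WT cortex against 11.77 to 11.86 and 10.41 in WT hippocampus against 10.58 to 10.63, and animal 64 read 11.45 in Ts1Cje cortex against 11.76 to 11.88. In the difference of hippocampus minus cortex within WT animals, animal 60 stood at 0.39 for Unc5c against 0.10 to 0.17, at 0.32 for Neo1 against 0.12 to 0.14 and at -0.16 for Pak1 against -0.65 to -0.58.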

How the results depend on the processing

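Dscam kept its higher value in Ts1Cje in every alternative run on the genotype comparisons, at 0.39 to 0.52 in cortex, 0.44 to 0.50 in hippocampus and 0.41 to 0.51 in the animal means. In cortex it was called with array weights (0.45, limma adjusted p = 3.44e-04), quantile normalisation (0.46, 0.0218), without animals 60 and 64 (0.43), and in a fit on all 22 arrays with the animal as a replicate block (0.48, 0.00686) or without it (0.48, 0.0103). Over 21 cortex alternatives the adjusted p ran from 3.44e-04 to 1.00. In the animal means it was called with a trend and robust prior or the dimmest genes left out (0.48 each), array weights (0.45), quantile normalisation (0.47), without animals 60 and 64 (0.44) and with platform names (0.48, 0.0495). The cause of these changes was not tested.

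The 1 gene called in cortex became 3 with the trend prior and with the dimmest genes left out, 48 with array weights, 13 with quantile normalisation, 32 without animals 60 and 64, and 23 in the fits on all arrays with and without the replicate block. In hippocampus 23 became 54 with array weights, 37 without animals 60 and 64 and 13 on all arrays without the block. In the animal means 11 became 20 (trend prior), 67 (array weights), 29 (quantile), 26 (dimmest genes left out) and 52 (without 60 and 64). The region count of 8637 became 19784 on the deposited scale and 13631 without animals 60 and 64. With 1 animal left out the counts were 1 to 7 in cortex (2 without 60, 7 without 64), 1 to 35 in hippocampus (4 without 60, 8 without 63, 35 without 64), 1 to 33 in the animal means and 7601 to 10022 between regions. Against the same fit without the block, the animal as a random replicate block changed the call of Unc5c between regions in WT (adjusted p = 0.0153) and in Ts1Cje (0.0182) and no other call among the 6 genes.

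Values near 0 changed sign, and on the deposited scale larger region differences did too, such as that of Dscaml1 (0.44 after centring). In cortex Dcc was -0.0025, Pak1 -0.0012 and Igsf5 0.014 with array weights, and Pak1 -0.0046 and Igsf5 0.025 without animals 60 and 64. In hippocampus Unc5c was -0.0032 with array weights and -0.0016 without 60 and 64, Itgb2l -0.0057 without them, and Dcc 0.0034 with quantile normalisation. In the animal means Dcc was -0.018 with array weights and -0.0066 without 60 and 64. The difference of the genotype effects was 0.026 for Dscam, 0.0025 for Unc5c and 0.034 for Neo1 with quantile normalisation, 0.017 and 0.0074 for Dscam and Neo1 on centred arrays and 0.032 for Dscam without 60 and 64. On the deposited scale the region difference was -0.19 for Dscaml1, -0.62 for Dcc, -0.45 for Unc5c, -0.46 for Neo1, -0.44 for Rgmb, -0.0091 for Unc5a, -0.076 for Prtg, -0.48 for Igdcc4, -0.20 for Nck2, -0.39 for Fyn, -0.090 for Arhgef6 and -0.20 for Slit3. That scale gave -0.15, -0.59, -0.43 and -0.45 for Dscaml1, Dcc, Unc5c and Neo1 in WT, and -0.23, -0.48 and -0.47 for Dscaml1, Unc5c and Neo1 in Ts1Cje, where Dcc was 0.040 with quantile normalisation. With 1 animal left out, the genotype difference in cortex ranged from -0.013 to 0.082 for Dcc, -0.0028 to 0.11 for Unc5c, -0.047 to 0.016 for Neo1, -0.066 to 0.11 for Pak1, -0.12 to 0.089 for Igsf5, -0.089 to 0.22 for Fam3b and -0.021 to 0.091 for Magi1. In hippocampus it was -0.079 to 0.019 for Dcc, -0.011 to 0.028 for Unc5c and -0.047 to 0.10 for Itgb2l, and in the animal means -0.046 to 0.051 for Dcc, -0.0068 to 0.067 for Unc5c and -0.017 to 0.11 for Pak1. The difference of the genotype effects was -0.040 to 0.046 for Dscam, -0.041 to 0.013 for Neo1 and -0.011 to 0.098 for Pak1, and the Ts1Cje region difference of Dcc -0.025 to 0.012.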
